A study of Homo sapiens with 6 samples.

Results

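The long noncoding RNAs that host small nucleolar RNAs (snoRNAs) were examined in MDA-MB-231 cells, together with MALAT1 and NEAT1, abundant nuclear long noncoding RNAs. The genes were chosen by name, with earlier results of these data known. The rule took the rows typed as noncoding RNA whose symbol is SNHG (small nucleolar RNA host gene) followed by a number, which gave 29 rows, and added 6 symbols, GAS5, ZFAS1, EPB41L4A-AS1, DANCR, MALAT1 and NEAT1. These 35 genes were found among 19730 noncoding RNA rows and 58656 gene rows in all.

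MDA-MB-231 is an established human line of triple-negative breast cancer. The cells received mitocurcumin, a curcumin derivative directed to mitochondria, at 5 µM for 9 h, or the DMSO vehicle alone for 9 h, in 3 libraries each. All libraries were made from polyadenylated RNA with a stranded kit. The replicates are labelled biological, with no word on separate cultures, and the p-values below therefore cover only the spread between these samples.

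A snoRNA host gene carries snoRNAs in its introns. When the transcript is spliced, the introns are trimmed to release snoRNAs, which guide chemical modification of ribosomal and spliceosomal RNA: box C/D snoRNAs (SNORD) guide ribose methylation, and H/ACA snoRNAs (SNORA) guide pseudouridylation. The spliced host RNA is polyadenylated, often has only short open reading frames, and in several hosts is broken down in the cytoplasm by nonsense-mediated decay, a pathway that depends on translation. NEAT1 and MALAT1 hold no snoRNA here and are nuclear RNAs, NEAT1 as the scaffold of paraspeckles and MALAT1 in nuclear speckles.

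Many host genes, like the genes of ribosomal proteins, start transcription at a run of pyrimidines called a terminal oligopyrimidine tract, by which growth signalling controls translation of the coding transcripts. The RefSeq promoter table (GRCh38.p14) held 32 promoters of 30 of the 35 genes. Each was searched, on the transcribed strand, for a run of at least 5 C or T bases. The run had to begin with C, within 5 bases of the annotated start on either side. Such a run was found in 14 of the 32 promoters (43.8%), against 21.1% of all 35116 promoters and 19.6% of the 12609 promoters of noncoding RNA rows. Among 80 promoters of cytosolic ribosomal protein genes, a comparison added after the values were seen, 58 (72.5%) held one.

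The windows of 50 bases below show the starts of 5 genes with the tract whose RNA was higher in mitocurcumin cells, then 2 with the tract whose RNA was lower, and last SNHG3 and SNHG1, which had no such run. Each reads 5′ to 3′ on the gene's own strand, with 20 bases before the annotated start and 30 from it. Capitals mark the pyrimidine run.
SNHG17: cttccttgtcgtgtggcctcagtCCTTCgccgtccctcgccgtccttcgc
ZFAS1: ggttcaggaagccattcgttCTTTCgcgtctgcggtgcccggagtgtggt
SNHG8: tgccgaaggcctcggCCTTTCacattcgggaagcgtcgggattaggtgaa
SNHG32: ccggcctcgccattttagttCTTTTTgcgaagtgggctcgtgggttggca
SNHG5: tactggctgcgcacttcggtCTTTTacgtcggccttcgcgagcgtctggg
SNHG4: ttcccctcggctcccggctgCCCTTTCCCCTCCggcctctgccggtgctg
SNHG12: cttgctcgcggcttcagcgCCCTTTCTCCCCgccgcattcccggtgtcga
SNHG3: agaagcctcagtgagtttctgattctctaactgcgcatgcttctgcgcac
SNHG1: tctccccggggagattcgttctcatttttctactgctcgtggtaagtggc

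On the minus strand lie the windows of SNHG17 (chr20:38435299-38435348), SNHG5 (chr6:85678704-85678753), SNHG12 (chr1:28581844-28581893) and SNHG1 (chr11:62855856-62855905). On the plus strand lie those of ZFAS1 (chr20:49278622-49278671), SNHG8 (chr4:118278742-118278791), SNHG32 (chr6:31834896-31834945), SNHG4 (chr5:139274081-139274130) and SNHG3 (chr1:28505923-28505972). The start in the promoter table differed from that of the deposited row for SNHG17 by 49 bp, for GAS5 by 163 bp, for ZFAS1 by 464 bp and for SNHG12 by 1110 bp. The 14 genes with the tract had all been measurable, and 5 were higher and 2 lower in mitocurcumin cells at an edgeR adjusted p under 0.05, with a median log2 fold change of mitocurcumin over control of 0.02. Of the 16 genes without it, 13 were measurable, 4 were higher and 1 was lower, with a median of 0.17. Over all tested rows 14.7% were higher and 17.8% lower, and over the 1974 tested noncoding RNA rows 9.52% were higher and 5.02% lower. Genes of both directions held the tract. The split rests on the annotated starts. GAS5 was counted without the tract, from a start that differs from that of its row. SNHG29 was also counted without it, although a pyrimidine run begins further upstream of its start. SNHG8 and MALAT1 were counted with the tract, although their runs of 6 bases begin 5 bases before the annotated start. Most of each of these 2 runs thus lies before the start.

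Other motifs were rare. CACGTG, the E-box letters, occurred on either strand in 2 of the 32 promoters (6.25%), those of SNHG7 and SNHG30, against 7.26% of all promoters. TGATGNAA, the letters of the composite site of the stress factor ATF4, occurred in 0 of the 32, against 3.62% of all promoters. TGACGTCA, the cyclic AMP response element, also occurred in 0 of the 32, against 1.85%.

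Levels are given as CPM, the counts scaled to the same library total. The fold change is log2 of mitocurcumin over control with its standard error (SE) from edgeR's quasi-likelihood fit over all 16481 rows with enough counts. The threshold for calling a gene higher or lower was a Benjamini-Hochberg adjusted p under 0.05. Total counts ran from 23146822 to 29104681 per library. Treatment separated the libraries on the leading principal component (51.6% of the variance), control replicate 1 stood apart on the next (16.2%), and the biological coefficient of variation was 8.43%. Of the 6 markers listed for the line, VIM, CD44, AXL, CAV1 and MSN lay between 642 and 2380.4 CPM and SPARC between 0.0852 and 0.939 CPM. Of the genes listed as absent from the line, ESR1, PGR and KRT20 stayed at or below 0.348 CPM, but CDH1 lay at 1.19 to 3.15 CPM and EPCAM at 18.8 to 24.3 CPM. GATA3, also on that list, fell, at 9.1, 9.89 and 8.76 CPM in mitocurcumin libraries, against 14.5, 12.9 and 13.6 CPM in control libraries (edgeR adjusted p = 0.0014). Among 15 markers of leukocytes, endothelium, smooth muscle, adipocytes, red cells and liver, CD3E, CDH5, VWF, HBB, HBA1 and ALB were at or near 0. The summed level of these 15 was 16.9 to 17.3 CPM in mitocurcumin libraries and 23.3 to 28.01 CPM in control libraries, and of the 6 that could be tested 1 passed, the endothelial adhesion gene PECAM1, at 6.43, 6.78 and 6.06 CPM in mitocurcumin libraries against 14.96, 12.3 and 11.5 CPM in control libraries (edgeR adjusted p = 2.82e-05). The leukocyte markers CD14 (-0.64, edgeR adjusted p = 0.0502) and LYZ (-0.27, edgeR adjusted p = 0.234) did not pass but were also lower in every mitocurcumin library. The other testable markers overlapped between the groups and did not pass. They were the leukocyte marker PTPRC (-0.21, edgeR adjusted p = 0.718), MYH11 (0.12, edgeR adjusted p = 0.807) and ADIPOQ (0.13, edgeR adjusted p = 0.792). The part of these markers in the results below was not tested.

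Of the 35 genes, 30 had enough counts to be tested. In mitocurcumin cells 10 were higher (SNHG17, EPB41L4A-AS1, ZFAS1, NEAT1, SNHG8, SNHG32, GAS5, SNHG5, SNHG30 and SNHG29), 3 were lower (SNHG12, SNHG4 and SNHG3), and 17 did not pass. The background was 14.7% higher and 17.8% lower over all tested rows, and 9.52% higher and 5.02% lower over noncoding RNA rows. The share of the set that was higher, 10 of 30, lay above both backgrounds, and the share that was lower, 3 of 30, lay between them. Fold changes ran from -0.73 to 0.82 on the log2 scale with a median of 0.11, beside a median of -0.01 over all rows and 0.13 over noncoding RNA rows. By the libraries alone, all mitocurcumin values lay above all control values for 11 genes and below them for 4. Over all rows 21.2% did so above and 23.7% below, and over noncoding RNA rows 19.2% above and 9.42% below. As in any bulk sample, fewer cells with an RNA and less of it per cell cannot be told apart.

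**Figure D1:**
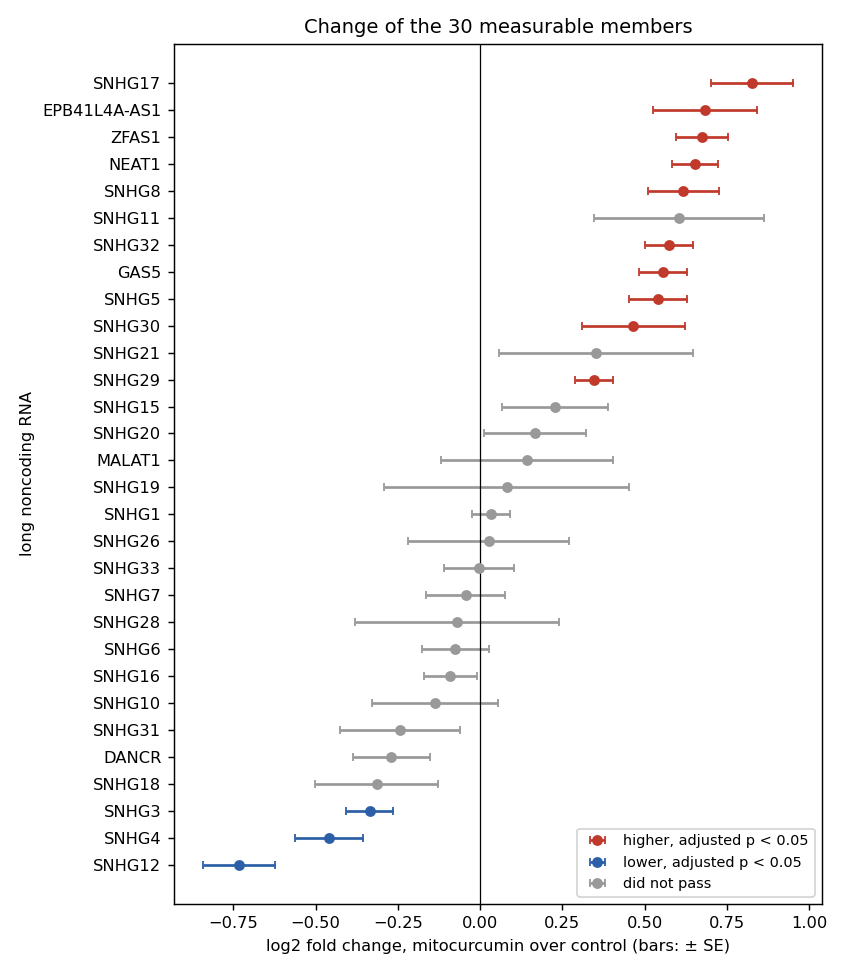
Log2 fold change of mitocurcumin over control for the 30 measurable genes (points) with ± SE (bars), ordered from the largest rise to the largest fall. Red points passed as higher, blue points as lower and grey points did not pass; SNHG11 and SNHG18 are examples of larger changes with wide bars that did not pass.

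The box C/D hosts, classed here by the symbols of the snoRNA rows inside them after the values were seen, were 13 genes. Of the 11 measurable, 5 were higher in mitocurcumin cells and 0 lower, with a median log2 fold change of 0.08. The background was 14.7% higher and 17.8% lower over all tested rows. Over noncoding RNA rows it was 9.52% higher and 5.02% lower. ZFAS1 (Entrez 441951, chr20:49278178-49289260, plus strand), named for its position antisense to the 5′ end of ZNFX1, holds SNORD12, SNORD12B and SNORD12C. It measured 69.4, 77.5 and 82.8 CPM in mitocurcumin libraries, against 47.3, 51.8 and 44.9 CPM in control libraries. Every mitocurcumin library lay above every control library, and the log2 fold change was 0.67 ± 0.08 (SE; edgeR adjusted p = 5.33e-06).

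SNHG32 (Entrez 50854, chr6:31834916-31839761, plus strand), host of SNORD48 and SNORD52, stood at 94.6, 84.8 and 84.9 CPM in mitocurcumin libraries, against 64.4, 59.05 and 54.1 CPM in control libraries. The groups did not overlap, and the change was 0.57 ± 0.07 (SE; edgeR adjusted p = 1.44e-05). SNHG5 (Entrez 387066, chr6:85677007-85678733, minus strand), host of SNORD50A and SNORD50B, stood at 57.9, 67.7 and 65.8 CPM in mitocurcumin libraries, against 44.9, 48.2 and 38.5 CPM in control libraries. Here too the groups were separate, with control replicate 3 the lowest library (0.54 ± 0.09, edgeR adjusted p = 0.000156).

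SNHG29 (Entrez 125144, chr17:16438987-16470648, plus strand), host of SNORD49A, SNORD49B and SNORD65, was the most abundant SNHG gene per transcript length. Its levels were 268, 247 and 267 CPM in mitocurcumin libraries, against 217, 206 and 192 CPM in control libraries. The groups did not overlap, but the change was the smallest of the 10 rises, at 0.34 ± 0.06 (SE; edgeR adjusted p = 0.000217). SNHG30 (Entrez 105371743, chr17:35568114-35574313, plus strand), host of SNORD7, measured 7.92, 7.16 and 7.38 CPM in mitocurcumin libraries, against 6.31, 4.64 and 5.33 CPM in control libraries. The groups were separate by a small margin, at 0.47 ± 0.16 (SE; edgeR adjusted p = 0.0296). By edgeR this call was lost when any library other than control replicate 1 was left out, with fold changes of 0.37 without control replicate 2 (adjusted p = 0.116), 0.47 without control replicate 3 (0.0661), and 0.44, 0.51 and 0.48 without mitocurcumin replicates 1, 2 and 3 (0.103, 0.0594 and 0.0773).

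The other measurable box C/D hosts did not pass. SNHG1 (chr11:62851978-62855885, minus strand), the host with the most box C/D snoRNA rows after SNHG14 and GAS5, measured 104, 102 and 95.7 CPM in mitocurcumin libraries, against 98.3, 100.1 and 96.6 CPM in control libraries. The groups overlapped within a narrow range, and the change was 0.03 ± 0.06 (SE; edgeR adjusted p = 0.718). SNHG16, host of the SNORD1 family, stood at 115, 105 and 131 CPM in mitocurcumin libraries, against 137, 123 and 114 CPM in control libraries, again with overlap (-0.09 ± 0.08, edgeR adjusted p = 0.428). SNHG6, SNHG19 and SNHG26 lay between -0.08 and 0.08. SNHG18 was lower in every mitocurcumin library, at 3.36, 3.54 and 3.46 CPM in those libraries, against 4.2, 4.99 and 3.67 CPM in control libraries, and did not pass (-0.31 ± 0.19, edgeR adjusted p = 0.223).

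Among the 12 H/ACA hosts, 11 were measurable, 3 were higher and 2 lower, with a median log2 fold change of -0.003. Background shares were 14.7% higher and 17.8% lower over all tested rows, and 9.52% and 5.02% over noncoding RNA rows. In this class and in the box C/D class alike 6 did not pass. The classes were not tested against each other. SNHG17 (Entrez 388796, chr20:38420588-38435377, minus strand), which holds SNORA71A to SNORA71D, had the largest rise of the set. It measured 12.1, 13.6 and 13.9 CPM in mitocurcumin libraries, against 7.92, 7.11 and 7.38 CPM in control libraries. The lowest mitocurcumin library stood well above the highest control library, at a log2 fold change of 0.82 ± 0.12 (SE; edgeR adjusted p = 7.44e-05).

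EPB41L4A-AS1 (Entrez 114915, chr5:112160526-112162501, plus strand), host of SNORA13, measured 6.59, 7.33 and 8.42 CPM in mitocurcumin libraries, against 4.58, 4.37 and 4.99 CPM in control libraries. The groups did not overlap (0.68 ± 0.16, edgeR adjusted p = 0.00286). SNHG8 (Entrez 100093630, chr4:118278762-118279823, plus strand), host of SNORA24, was nearly level among treated libraries, at 25.1, 25.5 and 25.3 CPM in mitocurcumin libraries, against 14.7, 19.1 and 15.7 CPM in control libraries. The spread lay in the control libraries, and the groups were separate (0.62 ± 0.11, edgeR adjusted p = 0.000299).

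SNHG4 (Entrez 724102, chr5:139274101-139284900, plus strand), host of SNORA74A and SNORA74D, fell in mitocurcumin cells. It measured 33.2, 24.6 and 29.2 CPM in mitocurcumin libraries, against 37.1, 41.9 and 40.6 CPM in control libraries, with no overlap (-0.46 ± 0.10, edgeR adjusted p = 0.00235). SNHG3 (Entrez 8420, chr1:28505943-28510892, plus strand), host of SNORA73A and SNORA73B, which take part in processing of ribosomal RNA, measured 40.4, 42.2 and 41.05 CPM in mitocurcumin libraries, against 53.8, 51.7 and 50.6 CPM in control libraries. Both groups were tight and separate (-0.34 ± 0.07, edgeR adjusted p = 0.00154).

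The other H/ACA hosts did not pass. SNHG11 was higher in every mitocurcumin library, at 2.43, 2.73 and 2.91 CPM in those libraries, against 2.33, 1.78 and 1.19 CPM in control libraries (0.60 ± 0.26, edgeR adjusted p = 0.0871), and passed at 0.85 without control replicate 1 (adjusted p = 0.016). DANCR, named for its role in holding back differentiation of progenitor cells and host of SNORA26, stood at 19.6, 16.7 and 15.5 CPM in mitocurcumin libraries, against 23.6, 19.1 and 19.7 CPM in control libraries. Only mitocurcumin replicate 1 reached the control range (-0.27 ± 0.12, edgeR adjusted p = 0.0914), and DANCR passed with the replicate number as a block (adjusted p = 0.0424). SNHG31 overlapped between groups and did not pass (-0.24 ± 0.18, edgeR adjusted p = 0.344), but without control replicate 1 it passed as lower, at -0.44 (adjusted p = 0.0154). SNHG7, SNHG15 and SNHG33 lay between -0.04 and 0.23.

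GAS5 and SNHG12, the 2 hosts holding snoRNAs of both classes, moved in opposite directions. GAS5 (growth arrest specific 5; Entrez 60674, chr1:173863899-173868882, minus strand) is known to build up in cells that stop growing and holds 10 box C/D rows and 1 H/ACA row. It measured 65.5, 60.1 and 62.4 CPM in mitocurcumin libraries, against 41.9, 45.6 and 40.5 CPM in control libraries, or 62.7 ± 2.73 against 42.7 ± 2.66 (mean ± SD, n = 3 each). The groups were far apart for their spread, at a log2 fold change of 0.55 ± 0.07, a 1.47-fold ratio of means (edgeR adjusted p = 1.92e-05).

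SNHG12 (Entrez 85028, chr1:28578538-28582983, minus strand), host of SNORD99, SNORA16A, SNORA44 and SNORA61, had the largest fall of the set. It measured 10.2, 10.7 and 11.4 CPM in mitocurcumin libraries, against 17.2, 19.02 and 17.6 CPM in control libraries. No libraries overlapped, and the mean level in mitocurcumin cells was 0.602 of that in control cells (-0.73 ± 0.11, edgeR adjusted p = 6.92e-05). Of the 4 hosts of small Cajal body RNAs, 3 (SNHG10, SNHG20 and SNHG21) were measurable, at -0.14, 0.17 and 0.35, and 0 passed. SNHG28, whose only snoRNA row has no family name, stood at -0.07 and did not pass either.

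**Figure D2:**
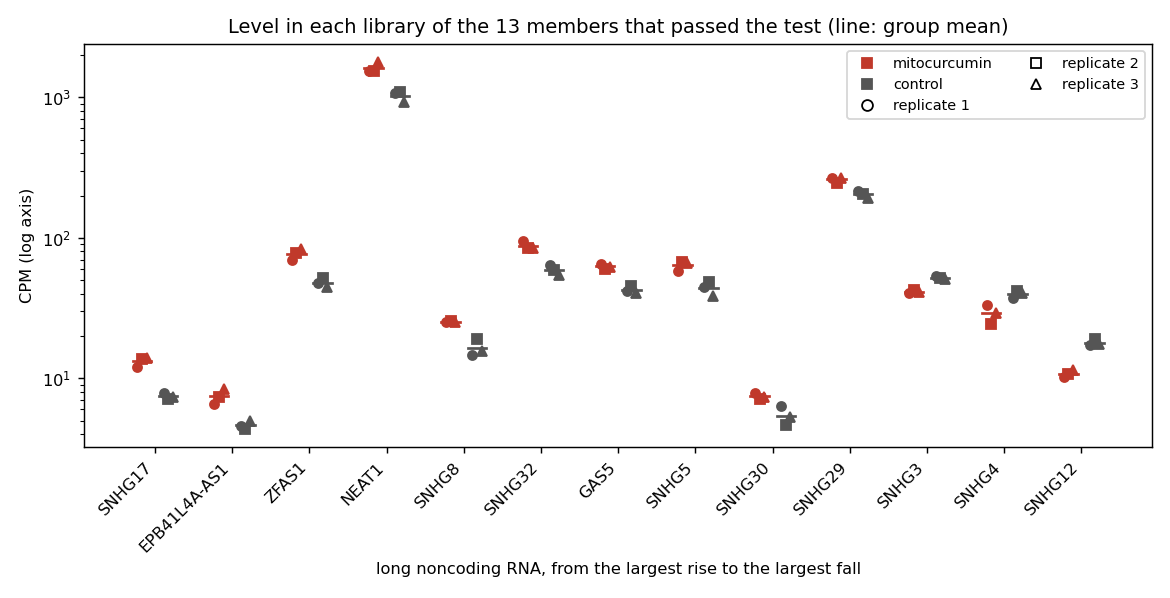
CPM on a log axis in each library for the 13 genes that passed the test, with mitocurcumin libraries in red to the left of control libraries in grey, a marker shape for each replicate and a short line at each group mean. For the 10 genes from SNHG17 to SNHG29 every red point lies above every grey point, and for SNHG3, SNHG4 and SNHG12 every red point lies below.

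NEAT1 and MALAT1, nuclear RNAs encoded next to each other on chromosome 11, differed in their spread. NEAT1 (Entrez 283131, chr11:65422798-65445540, plus strand) measured 1537, 1548 and 1775 CPM in mitocurcumin libraries, against 1073, 1088 and 928 CPM in control libraries. All mitocurcumin libraries were higher, with a mean ± SD of 1620.1 ± 134 against 1029.7 ± 88.7 CPM in control libraries (n = 3 each). Its log2 fold change was 0.65 ± 0.07, with the lowest adjusted p of the set (edgeR adjusted p = 2.38e-06). The RefSeq-linked transcripts of NEAT1 run from 3524 to 22743 nt. Its single row does not show which of them rose. How fully these libraries of polyadenylated RNA capture each form was not tested.

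MALAT1 (Entrez 378938, chr11:65497738-65506516, plus strand) measured 3341, 3096 and 5319 CPM in mitocurcumin libraries, against 3256, 4073 and 3331 CPM in control libraries. Mitocurcumin replicate 3 stood high and the other libraries overlapped, so the change of 0.14 ± 0.26 did not pass (edgeR adjusted p = 0.743). Without that replicate it was -0.14 (adjusted p = 0.27). How fully libraries of polyadenylated RNA capture MALAT1 was not tested either. TALAM1, the transcript from the opposite strand, overlaps MALAT1 over 7205 bp and was also highest in mitocurcumin replicate 3, at 397, 352 and 638 CPM in mitocurcumin libraries, against 436, 344 and 294 CPM in control libraries. It did not pass either (0.37 ± 0.31, edgeR adjusted p = 0.448), and its counts came to between 8.44% and 13.4% of those of MALAT1. Whether the counting used strand was not given in the sources used here, so reads of this pair may not have been told apart.

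**Figure D3:**
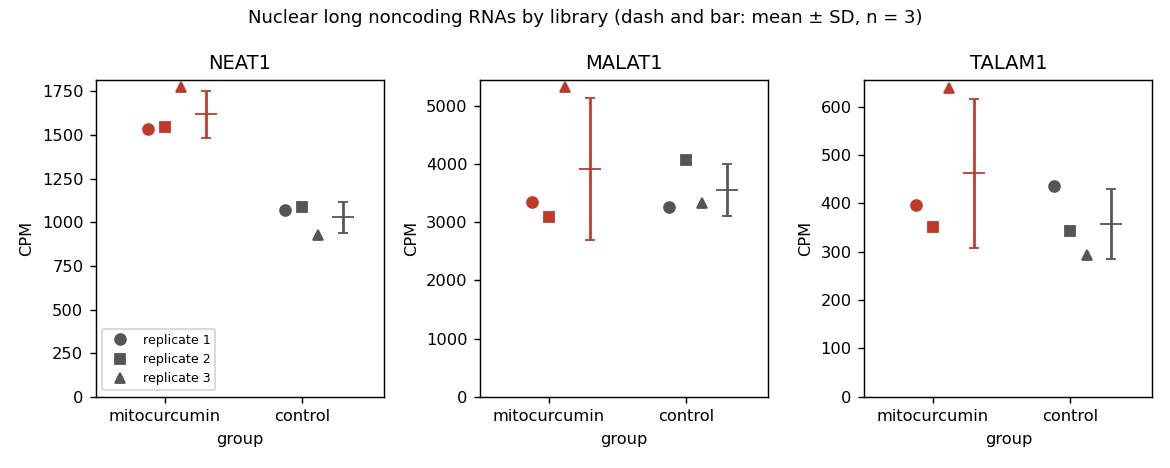
CPM of NEAT1, MALAT1 and TALAM1 in each library, with mitocurcumin to the left of control, a marker shape per replicate and a dash with a bar for mean ± SD (n = 3). The NEAT1 groups are separate, while mitocurcumin replicate 3, at 5319 CPM of MALAT1 and 638 CPM of TALAM1, stands above all other libraries in both.

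A further 5 genes were too low to measure. Over all 6 libraries together SNHG27 had 51.7 estimated counts, SNHG22 50.8, SNHG14 34.1, SNHG9 16.7 and SNHG25 7.2. SNHG14, a host in the imprinted SNRPN region, alone holds 84 of the 150 snoRNA rows inside the set, and they had 1 estimated count in all. At this depth no difference in these genes was detectable.

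Of the 150 snoRNA rows inside the hosts, 20 had enough counts to be tested, and 19 of these 20 had fold changes below 0. This comparison was added after the values were seen. Polyadenylated libraries are a poor measure of mature snoRNAs, which have no poly(A) tail, and a row inside a host on the same strand may share reads with unspliced host RNA. Of the 20, 2 were lower in mitocurcumin cells and 0 higher by edgeR. Of 49 other snoRNA rows 4.08% were lower, and of all tested rows 17.8% were lower and 14.7% higher. The median of the 20 was -0.63, and of the other 49 snoRNA rows 30 lay below 0, with a median of -0.21. In 14 of the 20 every mitocurcumin library lay below every control library. This pattern was shown by 28.6% of the other snoRNA rows and 23.7% of all tested rows. The 20 rows come from 8 hosts and are not independent.

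Both rows that passed lie in SNHG3. SNORA73A measured 0.809, 0.98 and 0.727 CPM in mitocurcumin libraries, against 2.75, 2.09 and 2.18 CPM in control libraries (-1.48 ± 0.28, edgeR adjusted p = 0.000693). SNORA73B measured 1.21, 1.07 and 1.00 CPM in mitocurcumin libraries, against 2.25, 1.55 and 2.52 CPM in control libraries (-0.94 ± 0.29, edgeR adjusted p = 0.0183). Both fold changes were further below 0 than that of SNHG3 (-0.34), a difference that was not tested. Both rows also lie within RCC1 on the same strand, a coding gene that fell as well (-0.45). Their counts may therefore share reads with either transcript. The exception to the common direction was SNORA71C in SNHG17, at 0.47 ± 0.41 (edgeR adjusted p = 0.422).

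Summed per host, 11 hosts had at least 50 snoRNA counts, a limit set after the values were seen, and no test was made on these sums. The summed snoRNA level was lower in every mitocurcumin library than in every control library for 7 hosts, overlapped for 3 (ZFAS1, SNHG15 and SNHG16) and was higher for SNHG17. Taken as single rows, 23.7% of all tested rows and 28.6% of the other snoRNA rows were lower in this way. In GAS5 the sum over 11 snoRNA rows was 4.37, 5.29 and 4.3 CPM in mitocurcumin libraries, against 6.61, 6.38 and 6.27 CPM in control libraries, while the host itself rose. The snoRNA counts came to 6.71%, 8.81% and 6.81% of the GAS5 counts in mitocurcumin libraries, against 15.8%, 14.1% and 15.5% in control libraries.

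SNHG1, whose own level hardly differed, showed the same with more counts. Its 9 snoRNA rows summed to 8.98, 8.74 and 8.07 CPM in mitocurcumin libraries, against 10.4, 13.6 and 10.4 CPM in control libraries. That was 8.65%, 8.56% and 8.44% of the SNHG1 counts in mitocurcumin libraries, against 10.7%, 13.6% and 10.7% in control libraries. SNHG17, the gene with the largest rise, had a higher snoRNA sum too, but relative to the host it was lower, at 9.62%, 9.85% and 9.38% in mitocurcumin libraries, against 14.7%, 15.7% and 14.3% in control libraries. As a share of the host, the snoRNA rows were lower in every mitocurcumin library for 7 hosts (SNHG1, GAS5, SNHG3, SNHG17, SNHG32, ZFAS1 and SNHG5) and overlapped for 4 (SNHG12, SNHG6, SNHG15 and SNHG16). For hosts that rose, the share has the host in its denominator and is lower for that reason alone unless the snoRNA rows rise equally. No share of this kind was computed for other rows, so these counts have no background.

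**Figure D4:**
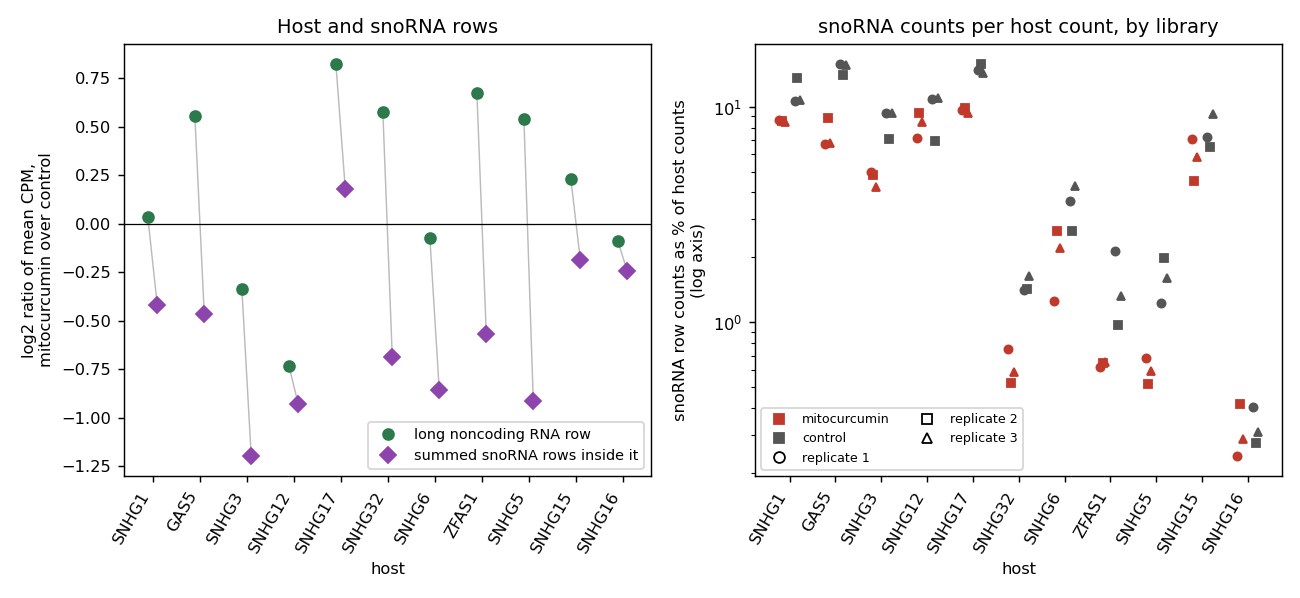
Left, log2 ratio of mean CPM, mitocurcumin over control, for each of 11 hosts (green) and the sum of the snoRNA rows inside it (purple), ordered by snoRNA counts. Right, snoRNA row counts as a percentage of host counts on a log axis in each library, mitocurcumin in red and control in grey; the purple marker lies below the green one in all 11 hosts, by the widest gap in SNHG5 (-0.92 against 0.54).

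Of the 35 genes, 9 start within 1000 bp of a protein-coding gene that is read in the opposite direction. SLC3A2, whose start lies 224 bp from that of SNHG1, encodes the heavy chain of amino acid transporters. It rose to 197, 174 and 179 CPM in mitocurcumin libraries, against 61.02, 49.1 and 53.6 CPM in control libraries (1.75 ± 0.08, edgeR adjusted p = 6.44e-11), while SNHG1 did not pass. BARD1, the partner of BRCA1 in a ubiquitin ligase, starts 546 bp from SNHG31 and fell (-0.51 ± 0.08, edgeR adjusted p = 0.000106). RPS2, a ribosomal protein gene 170 bp from the barely detected SNHG9, was slightly higher (0.18 ± 0.05, edgeR adjusted p = 0.0188). That call was lost without control replicate 3 and without mitocurcumin replicate 1 or 3 (adjusted p = 0.0626, 0.0608 and 0.0827).

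The partners of the hosts that rose did not pass. ZNFX1, a helicase gene 121 bp from ZFAS1, measured 261, 240.3 and 247 CPM in mitocurcumin libraries, against 242, 225 and 236 CPM in control libraries (0.09 ± 0.05, edgeR adjusted p = 0.228). ZBTB37, a zinc finger gene that starts 800 bp inside GAS5 and overlaps it on the opposite strand over 801 bp, stood at 0.05 ± 0.07 (edgeR adjusted p = 0.625). SEMA5A near SNHG18, GLRX5 near SNHG10, TRAF7 near SNHG19 and ACAA2 near SNHG22 lay between -0.32 and -0.01 and did not pass.

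Of the 35 genes, 15 overlap a protein-coding row, and for these the counts may not be fully separate. RCC1, which encodes the exchange factor of the GTPase Ran, overlaps SNHG3 on the same strand over 4850 bp. It fell as SNHG3 did, at 60.8, 62.3 and 56.7 CPM in mitocurcumin libraries, against 83.1, 86.2 and 76.3 CPM in control libraries (-0.45 ± 0.07, edgeR adjusted p = 7.45e-05). MATR3, a nuclear matrix protein gene, spans all 10800 bp of SNHG4 on the same strand and did not pass (-0.12 ± 0.06, edgeR adjusted p = 0.175). LRRC75A lies opposite SNHG29 over 29072 bp and was higher, at 8.45, 6.65 and 6.82 CPM in mitocurcumin libraries, against 4.58, 3.98 and 4.22 CPM in control libraries (0.78 ± 0.16, edgeR adjusted p = 0.00135). EPB41L4A lies opposite EPB41L4A-AS1 over 1976 bp and did not pass (0.22 ± 0.10, edgeR adjusted p = 0.11).

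Set against transcript length, the order of the hosts changed. In CPM per kilobase of the median RefSeq-linked transcript length in GENCODE, available for 30 of the 35 genes, MALAT1 stood highest, at 450 in mitocurcumin cells and 408 in control cells. SNHG29 followed at 325 in mitocurcumin cells and 256 in control cells, and SNHG5, a transcript of 430 nt, at 148 in mitocurcumin cells and 102 in control cells. SNHG32 was at 121 in mitocurcumin cells and 81.5 in control cells, and GAS5 at 99.2 in mitocurcumin cells and 67.5 in control cells. ZFAS1 was at 89.03 in mitocurcumin cells and 55.8 in control cells, and SNHG1 at 79.7 in mitocurcumin cells and 77.9 in control cells. In mitocurcumin cells GAS5 and ZFAS1 thus stood above SNHG1 on this scale, and in control cells below it. This order rests on the median lengths and may not hold at others. The linked transcripts run from 542 to 723 nt for GAS5, 504 to 1008 nt for ZFAS1 and 1038 to 1487 nt for SNHG1. The lowest of the 30 was SNHG14, at 0.127 in mitocurcumin cells and 0.0902 in control cells.

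Of 20 genes for proteins that bind and assemble snoRNAs, 2 were higher (SNU13 and ZNHIT3) and 4 lower (NOP56, TCOF1, RPAP3 and NOLC1), with a median log2 fold change of 0.01. Both shares lie near those of all tested rows, 14.7% higher and 17.8% lower. NOP56, a core protein of box C/D particles, measured 168, 177 and 176 CPM in mitocurcumin libraries, against 221, 236 and 218 CPM in control libraries. It was lower in every treated library (-0.37 ± 0.05, edgeR adjusted p = 4.6e-05). TCOF1, which encodes the nucleolar protein treacle, stood at 90.5, 89.3 and 83.7 CPM in mitocurcumin libraries, against 114, 107 and 110.2 CPM in control libraries (-0.33 ± 0.06, edgeR adjusted p = 0.000299).

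Protein-coding genes that host snoRNAs gave 29 higher and 7 lower of 53 tested, with a median of 0.18, beside 14.7% higher and 17.8% lower over all rows. The list is made up in good part of ribosomal protein genes. The chaperone gene HSPA9 stood at 913, 861 and 939 CPM in mitocurcumin libraries, against 509, 623 and 643 CPM in control libraries (0.61 ± 0.07, edgeR adjusted p = 1.21e-05). HSPA8, its cytosolic relative, stood at 4004, 3821 and 3976 CPM in mitocurcumin libraries, against 2615, 2852 and 2816 CPM in control libraries (0.51 ± 0.05, edgeR adjusted p = 1.17e-06). The 7 lower hosts were RCC1, PRRC2A, NOP56, TNPO2, NCL, SF3B3 and CHD8. EIF4A1, the remaining gene of the list, was listed at 0 in every library. This does not show that its RNA was absent, and the part of the counting in it was not tested.

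Among 20 factors of nonsense-mediated decay, 5 were higher, among them SMG1, UPF2 and ETF1, and 3 lower (RBM8A, PNRC2 and GSPT1), with a median of 0.06, beside 14.7% higher and 17.8% lower of all tested rows. SMG1, the kinase of the pathway, measured 403, 402 and 369 CPM in mitocurcumin libraries, against 292, 299.5 and 318 CPM in control libraries (0.37 ± 0.06, edgeR adjusted p = 9.12e-05). It was higher in every treated library.

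Of 20 tested protein-coding genes with transcripts known as targets of that decay, 13 were higher and 1, SRSF6, was lower. The median was 0.49, and all rows gave 14.7% higher and 17.8% lower. Each row counts a gene as a whole and does not separate a transcript that is decayed from the others. This list and that of the decay factors share some genes. The largest changes were in ASNS, asparagine synthetase, at 169, 159.7 and 169 CPM in mitocurcumin libraries, against 16.02, 16.7 and 15.1 CPM in control libraries, and in DDIT3, a stress transcription factor, at 42.4, 33.3 and 40.9 CPM in mitocurcumin libraries, against 4.87, 6.07 and 4.18 CPM in control libraries. Their log2 fold changes were 3.38 ± 0.07 (edgeR adjusted p = 2.51e-15) and 2.94 ± 0.14 (edgeR adjusted p = 1.16e-10). These 2 and 2 more genes of the list also belong to a list of 15 targets of the integrated stress response, all 15 of which were higher (median 2.56, led by TRIB3 at 3.86 ± 0.11 and CTH at 3.81 ± 0.10). The host RNAs rose far less, by at most 0.82. The list of 15 is not complete, and whether others of the 13 belong to the same response was not tested. The part of decay and of the stress response in the host RNA levels was not tested.

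Of 19 genes for proteins of paraspeckles, the bodies that NEAT1 scaffolds, 11 were lower and 1, RBM14, was higher, with a median of -0.20. Over all rows 17.8% were lower and 14.7% higher. RBMX, a nuclear RNA-binding protein gene, measured 199, 202 and 198 CPM in mitocurcumin libraries, against 345, 376 and 381 CPM in control libraries (-0.88 ± 0.05, edgeR adjusted p = 3.07e-09). PSPC1, a core paraspeckle protein, measured 53.2, 55.4 and 56.2 CPM in mitocurcumin libraries, against 83.5, 89.9 and 85.6 CPM in control libraries (-0.65 ± 0.06, edgeR adjusted p = 6.1e-07). The core protein SFPQ also fell, by 0.44 on the log2 scale (edgeR adjusted p = 0.000137). As the NEAT1 row does not separate its transcripts, a rise of the scaffold form is not shown. Its relation to these falls was not tested.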

How the data were processed

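RNA was measured in 3 mitocurcumin and 3 control libraries, made with Trizol extraction and a stranded poly(A) kit, per the labels. The genome build, per the submitters' processing notes, was GRCh38. Neither the aligner nor the counter, nor its use of strand, is known from the sources used here. Estimated counts per gene were deposited as raw values. This was read from the values, of which 20.1% to 21.4% above 0 were exactly whole, with no tolerance. The authors' normalized values, on a log2 scale, equalled the raw ones over a single factor per library, with those under that factor set to 0.

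Estimated counts were rounded, since the planned test assumed whole counts, and tested on all rows with R 4.3.3 and edgeR 4.0.16 (quasi-likelihood, robust, TMM, filterByExpr with a minimum count of 10 and total of 15, group as the only term, two-sided, Benjamini-Hochberg). SE is the coefficient over the square root of F. CPM used TMM-scaled totals of rounded counts of the rows kept. Replicates differed by more than counting noise (chi-square per gene 5.31 to 18.8), so no library was counted as one deposited again, which does not show separate cultures. The test was tried on simulated data. Alternatives used DESeq2 1.42.0, limma 3.58.1, other scalings, filters, a replicate block, a threshold of 0.01 and each library left out.

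The members and lists were chosen with earlier results of these data known. Members that passed, with GAS5, NEAT1 and MALAT1, were given per library, as were the 2 genes of each list that changed most at a mean CPM of 1 or more, and the divergent neighbours were named. The stress response list is given by its leading fold changes only. Other genes were named after their values were seen. A few listed genes enter the counts but are not reported here by name, whatever the naming rule gave. Sequences are RefSeq's, GRCh38.p14, and the promoter table held no entry used here for NEAT1, SNHG6, SNHG9, SNHG15 and SNHG25.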

Additional observations from a re-analysis of the deposited data

How the results depend on the processing

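Of the 13 genes of the set that passed, 12 passed in the same direction under all 16 alternatives, and SNHG30 was the exception (adjusted p 0.00378 to 0.116). No gene that passed changed direction. The count higher ran from 9 to 11 and the count lower from 3 to 4. With the replicate number as a block the counts were 10 and 4, DANCR joining the lower genes. Same-numbered libraries did not deviate together (correlations of 0.10, 0.02 and -0.01), so the numbers were not taken to pair samples.

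Among genes that had not passed, SNHG33 (-0.003) changed sign under DESeq2 (0.0068), RLE scaling (0.0067), a mean CPM of at least 1 (0.0204), no filter (0.0014) and unrounded values (0.0045), and ACAA2 at a mean CPM of at least 1 (0.0133). With single libraries left out, the fold change ran from -0.19 to 0.15 for SNHG28, -0.0662 to 0.0588 for SNHG33, -0.13 to 0.14 for SNHG26, -0.14 to 0.0113 for SNHG6, -0.15 to 0.03 for SNHG7, -0.14 to 0.30 for MALAT1, -0.29 to 0.32 for SNHG19 and -0.0558 to 0.0295 for ACAA2. The cause was not tested.

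At a threshold of 0.01 the higher counts were 1 snoRNP protein, 17 coding hosts and 0 paraspeckle proteins, and the lower counts 1 decay factor, 0 decay substrates and 3 coding hosts. The lower decay substrate was also lost (0) under RLE, a mean CPM of at least 1, no filter, the replicate block and unrounded values. With single libraries left out, higher counts ran from 1 to 2 for snoRNP proteins, 18 to 28 for coding hosts and 0 to 1 for paraspeckle proteins, and lower counts from 1 to 3 for decay factors, 0 to 1 for decay substrates and 3 to 9 for coding hosts. Genes near 1 CPM, such as SNHG19 and SNHG28, had SEs above 0.3, which limits what could be detected.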
